A study of Mus musculus with 8 samples.

Results

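The lysosome is the acidic compartment in which cells break down proteins, glycans and lipids, and its content was read here through 38 genes in mouse spleen stromal cells cultured with leukemic or with control B cells. The genes were chosen by symbol as known parts of this compartment. They comprise 11 peptidases, 10 glycosidases and sulfatases, 6 proteins of lipid hydrolysis and transport, 6 membrane proteins, 3 components of the proton pump, and progranulin with the autophagy receptor *Sqstm1*. Of the 38 genes, 36 had a named probe on the array. *Npc1* and *Cd68* had none and are not analysed here. Each gene was represented by its brightest probe among those with a detection p-value under 0.05 on 4 or more of the 8 arrays. This left 35 genes among 9971 features tested, 9174 of them with a gene symbol, and all 35 were detected on all 8 arrays.

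The stromal cells were the mSSC-YFP line, which carries a yellow fluorescent protein gene and was immortalized from E18.5 embryonic spleen. The strain in the labels is C57BL6/N, and cells were used between passage 2 and 6. In the control group (4 arrays) the line was cultured with primary splenic B cells from adult mice matched in age to Eμ-TCL1 animals. In the leukemic group (4 arrays) it was cultured with leukemic B cells of adult Eμ-TCL1 mice, a model of chronic lymphocytic leukemia in which the human oncogene TCL1 is driven in B cells by an immunoglobulin promoter and enhancer. Both groups had 20 B cells per stromal cell according to the labels and were kept for 40 to 48 h, and the YFP-positive stroma was then sorted. All 8 arrays were on 1 chip. The line is a single immortalized population, so it stands for the spleen stroma only in part, and it is not stated whether the replicates differ in culture dish or in B cell donor. The p-values therefore measure the spread between these samples only.

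Lysosomal hydrolases are made in the endoplasmic reticulum, tagged with mannose phosphate in the Golgi and delivered to the lysosome, where the V-ATPase pump keeps the lumen acidic enough for them to work. Many of their genes carry E-box motifs close to the transcription start that can be bound by TFEB, TFE3 and MITF, the basic helix-loop-helix factors that enter the nucleus when lysosomes are stressed or nutrients are short. In fibroblastic stroma the same enzymes also degrade collagen and proteoglycans taken up from the matrix.

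The promoters of the members were searched for this E-box because it is the motif known from promoters of lysosomal genes. RefSeq promoters of build GRCm38.p6, running from 250 bases before to 50 bases after the start, were matched for 32 of the 38 members. The 6-base palindrome CACGTG, which reads the same on both strands, was found in 11 of the 32 members (34.4%) and in 2187 of 27025 genes with a promoter (8.09%). The longer palindrome TCACGTGA, which contains the first, was found in 5 members (15.6%) and in 304 genes (1.12%). The nonamer TCACGTGAC, searched on both strands and containing both palindromes, was found in the promoters of 5 members (15.6%) and 242 genes (0.895%). The 11 promoters held 18 copies of the 6-base motif, of which 12 began within 100 bases before the start. A match describes the letters only and is not evidence of binding.

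The windows that follow end before the transcription start, are written 5′ to 3′ on the strand of the gene, and have CACGTG in capitals. They are those with more than 1 copy and those of members whose values are given in full. The exception is *Atp6v0d1*, whose motif begins at -3 from the start and runs past it, so its window is not printed. The *Lamp1* window (chr8:13159081-13159160, plus strand) holds 4 copies, the highest number among the members. Those of *Mcoln1* (chr8:3500424-3500503, plus strand) and *Gla* (chrX:134601174-134601253, minus strand) hold 2 each. Single copies lie in the windows of *Arsa* (chr15:89477425-89477504, minus strand), *Glb1* (chr9:114400993-114401072, plus strand), *Ctsd* (chr7:142387883-142387962, minus strand) and *Ctsl* (chr13:64370691-64370770, minus strand), the last of them with its motif far from the start. The *Ctsd* promoter holds another copy, at -245 from the start, outside its printed window.
Lamp1: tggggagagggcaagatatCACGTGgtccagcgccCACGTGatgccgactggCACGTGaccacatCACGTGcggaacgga
Mcoln1: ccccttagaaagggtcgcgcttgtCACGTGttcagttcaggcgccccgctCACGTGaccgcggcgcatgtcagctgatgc
Gla: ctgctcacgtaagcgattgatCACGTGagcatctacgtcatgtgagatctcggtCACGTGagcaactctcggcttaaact
Arsa: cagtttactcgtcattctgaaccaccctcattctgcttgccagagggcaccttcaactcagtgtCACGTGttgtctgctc
Glb1: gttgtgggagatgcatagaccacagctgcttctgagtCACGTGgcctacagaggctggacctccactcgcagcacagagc
Ctsd: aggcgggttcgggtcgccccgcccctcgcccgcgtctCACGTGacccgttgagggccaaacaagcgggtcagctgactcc
Ctsl: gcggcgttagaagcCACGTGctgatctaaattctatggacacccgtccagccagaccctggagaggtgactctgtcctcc

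**Figure D1:**
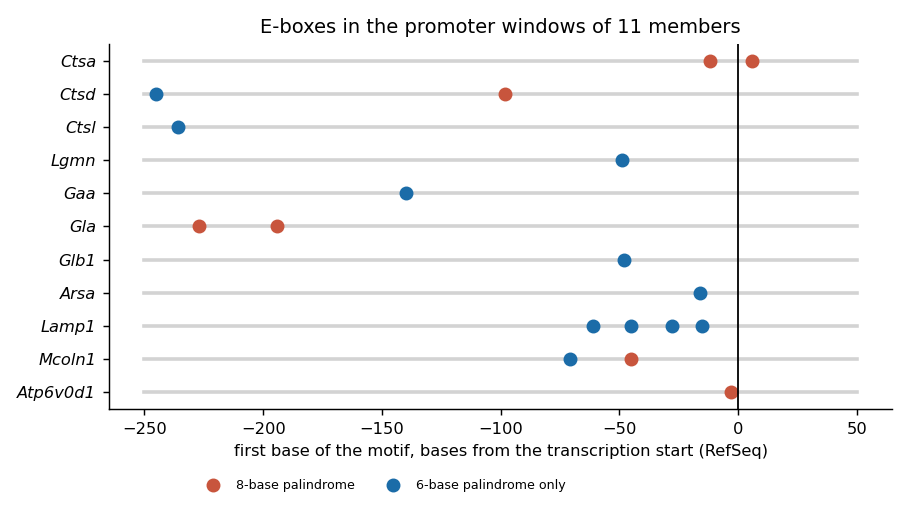
Position of each CACGTG motif (x axis, bases from the RefSeq transcription start) in the promoter window of the 11 members that hold one (rows). Red points lie inside the longer palindrome TCACGTGA and blue points do not; 1 of the 18 motifs, in *Ctsa*, begins after the start.

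Leukemic replicate 4 stood apart from the other arrays before any comparison was made. Across the 9971 features its level correlated with the other 7 arrays at r between 0.955 and 0.970, against 0.984 to 0.995 among those 7. Of 25697 probes, 13753 to 13938 were detected on control arrays and 13504 to 13710 on leukemic arrays. These ranges were close but did not overlap. Of the 13 markers of spleen stroma and fibroblasts on the array, 11 to 12 were detected in every sample. The spleen factor *Tlx1* was detected on 0 arrays and *Fap* on 2. Markers of B cells were higher on the leukemic arrays. The summed signal of the 7 B cell genes tested ran from 432 to 627 on control arrays and from 729 to 5820 on leukemic arrays, the highest on leukemic replicate 4, and 6 of the 7 passed the rank product threshold (4 of the 7 without leukemic replicate 4), none of them the limma threshold. The immunoglobulin-folding gene *Mzb1* (2.40 ± 0.87 on the log2 scale, difference ± SE) and the B cell receptor chain *Cd79b* (1.68 ± 0.51) had the largest differences, at 1.46 and 1.10 without leukemic replicate 4. In the values normalized by the authors, their differences were 1.09 and 0.57. Values without leukemic replicate 4 are given where it moved the difference of a named gene, or the median of a gene list, by over 1.5 times.

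No lysosomal member passed either test. Levels are log2 of background-corrected signal normalized to common quantiles, and a difference is the mean of the 4 leukemic arrays minus the mean of the 4 control arrays. The rank product, which ranks genes within every leukemic-against-control pair of arrays, called 37 of the 9971 features higher with leukemic cells (0.371%) and 0 lower (0.0%) at a q-value below 0.05, and 6 higher without leukemic replicate 4. In simulated arrays with no change between groups and each feature's own spread, the rank product also called features and limma called none, so a rank product call here is no firm evidence of a change. None of the 35 members was among them, the smallest q being 0.419 for a higher level (*Galns*) and 0.846 for a lower level (*Ctsl*). With limma and Benjamini-Hochberg adjustment, 0 of all features (0.0%) and 0 of the members passed an adjusted p of 0.05, and the smallest adjusted p among the members was 0.639. At an unadjusted limma p below 0.05, 5 members were higher (14.3% of the 35, against 3.9% of all features) and 0 were lower (against 3.68%).

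The means nevertheless leaned to one side. The leukemic mean was above the control mean in 30 of the 35 members, against 50.6% of all features, and the median difference was 0.13 on the log2 scale (a fold of 1.09), against 0.0028 over all features. The members share their arrays and are not independent of each other, so no test was made of this count. Differences ran from -0.23 to 0.44, with standard errors of 0.07 to 0.21, and 14 of the 35 were smaller than 0.1 in either direction. The 95% interval of the difference (limma) included 0 in 30 members. All 35 intervals lay within 1 of 0, the lowest limit being -0.58 and the highest 0.75. A doubling or halving of the normalized signal of the chosen probe was therefore outside the interval of every member tested. The intervals do not cover the choice of normalization or of probe, so they set no limit on the change in mRNA. Without leukemic replicate 4 the median was 0.067 and 22 of the 35 members were higher (62.9%, against 51.5% of all features). Without leukemic replicate 1 the median was 0.1 and 26 of the 35 members were higher (74.3%, against 49.8% of all features). Without control replicate 2 the median was 0.078.

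**Figure D2:**
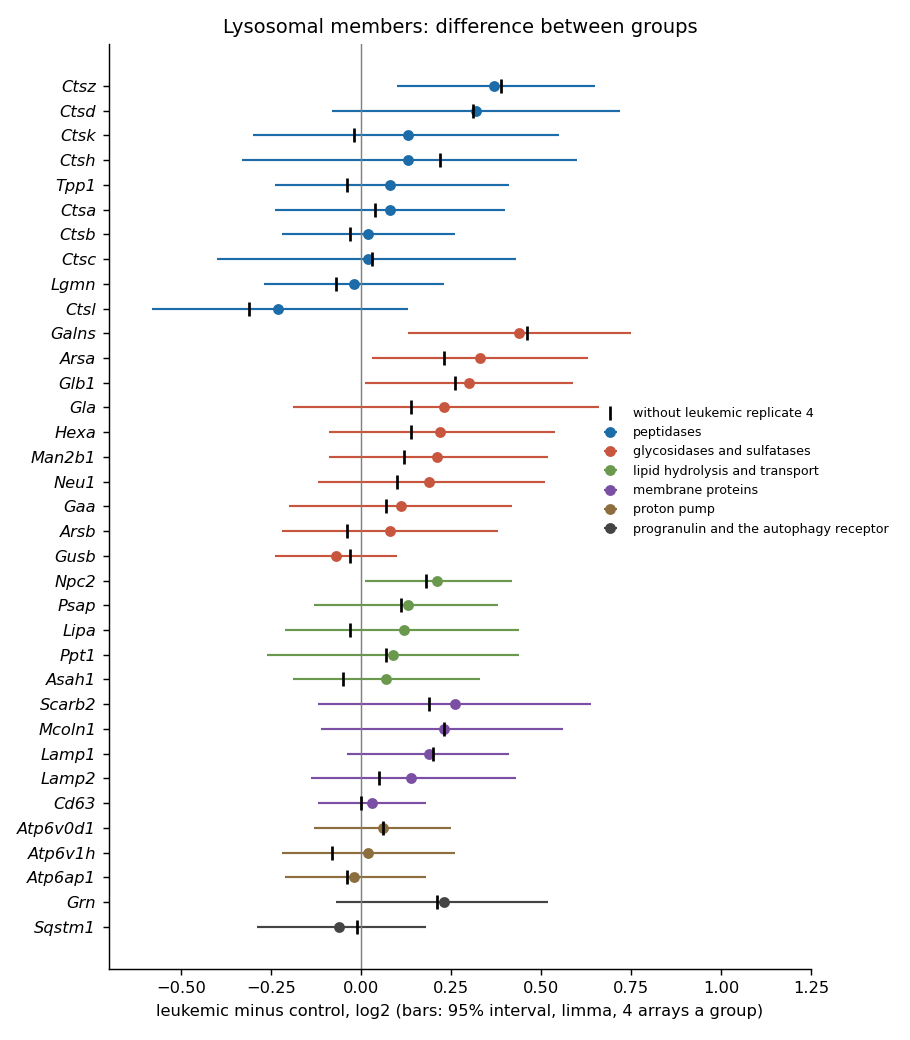
Difference between the leukemic and control means (x axis, log2) for the 35 members tested, by role; points are differences, bars their 95% intervals from limma with 4 arrays a group, and black ticks the difference without leukemic replicate 4. Most points lie right of 0, between -0.23 and 0.44, and 30 of the 35 bars cross 0.

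Among the peptidases, cathepsin Z stood highest and cathepsin L lowest with the chosen probes. *Ctsz*, a carboxypeptidase, read 9.84, 9.88, 10.20 and 10.25 on control replicates 1 to 4 and 10.49, 10.28, 10.51 and 10.37 on leukemic replicates 1 to 4. Every leukemic array was above every control array, although leukemic replicate 2 exceeded control replicate 4 by little. The difference was 0.37 ± 0.12 (SE; limma adjusted p = 0.639), and a second probe for the gene gave 0.41. A lack of overlap in this direction was seen in 2 of the 35 members (5.71%) and in 2.21% of all features, and in the opposite direction in 0 members against 2.31%.

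*Ctsd*, the main aspartic protease of the lysosome, read 6.76, 6.60, 6.40 and 7.12 on the control arrays and 7.13, 7.18, 6.78 and 7.06 on the leukemic arrays. The groups overlapped because control replicate 4 was high and leukemic replicate 3 low. The difference was 0.32 ± 0.18 from these values, and 0.09 from the authors' own normalized values. *Ctsl*, a cysteine endopeptidase, was the member with the lowest difference and was added after its values were seen. It read 6.81, 7.11, 6.59 and 6.78 on the control arrays and 6.51, 6.50, 6.52 and 6.84 on the leukemic arrays. Leukemic replicates 1, 2 and 3 were below all control arrays, and leukemic replicate 4 was above 3 of them. The difference was -0.23 ± 0.16, -0.31 without leukemic replicate 4 and -0.06 in the authors' values.

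The other peptidases showed smaller differences with their chosen probes. *Ctsk*, the collagen-degrading cathepsin, had a difference of 0.13 ± 0.19, and *Ctsh*, an aminopeptidase, one of 0.13 ± 0.21. *Tpp1*, which removes tripeptides, and *Ctsa*, the carboxypeptidase that protects beta-galactosidase and neuraminidase, both stood at 0.08 ± 0.15. Without leukemic replicate 4 these 4 differences were -0.02 (*Ctsk*), 0.22 (*Ctsh*), -0.04 (*Tpp1*) and 0.04 (*Ctsa*). The other kept probes of *Ctsa* gave 0.59, 0.21 and 0.14, so the size of its difference depends on the probe. *Ctsb* (0.02 ± 0.11), a cysteine protease, *Ctsc* (0.02 ± 0.19), which activates granule serine proteases, and *Lgmn* (-0.02 ± 0.11), the asparaginyl protease that processes other cathepsins, were near 0, at -0.03, 0.03 and -0.07 without that array. Of the 10 peptidases tested, 8 had the higher mean with leukemic cells, and the median difference was 0.08. Without leukemic replicate 4 this median was 0.0058 and 5 of the 10 were higher.

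*Ctss*, the cathepsin of antigen-presenting cells, was detected on 2 of the 8 arrays only and was not tested. Its signal was 63.1 on control replicate 1 (detection p-value 0.0363) and 98.3 on leukemic replicate 4 (0.015), where B cell transcripts were also most abundant. On the other 6 arrays it was between 57.4 and 71.4 and not above background.

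The glycosidases and sulfatases had the highest median of the 6 role groups with all 8 arrays, and 9 of the 10 had the higher mean with leukemic cells. The order was not stable. Without leukemic replicate 4 their median was 0.13, below the 0.19 of the membrane proteins. In the authors' values it was 0.16, against 0.18 for the membrane proteins. *Galns*, the sulfatase that acts on keratan sulfate, read 6.03, 6.22, 6.38 and 6.31 on the control arrays and 6.77, 6.61, 6.72 and 6.62 on the leukemic arrays. The groups did not overlap. Its difference of 0.44 ± 0.14 was the highest of all 35 members with the chosen probes (limma unadjusted p = 0.00928, adjusted p = 0.639, rank product q = 0.419). It was 0.46 without leukemic replicate 4, but only 0.10 in the authors' normalized values.

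*Arsa*, which removes sulfate from sulfatide, read 11.12, 10.74, 11.16 and 11.11 on the control arrays and 11.37, 11.12, 11.31 and 11.66 on the leukemic arrays. Leukemic replicate 2 lay within the control range and leukemic replicate 4 was the highest. The difference was 0.33 ± 0.14, and 0.23 without leukemic replicate 4. *Glb1*, the lysosomal beta-galactosidase, was added after its values were seen and read 10.54, 10.09, 10.43 and 10.42 on the control arrays and 10.79, 10.40, 10.72 and 10.77 on the leukemic arrays. Leukemic replicate 2 was again inside the control range and the other leukemic arrays were above it. The difference was 0.30 ± 0.13, and 0.26 both without leukemic replicate 4 and in the authors' values.

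*Gla* (0.23 ± 0.19), *Hexa* (0.22 ± 0.14), *Man2b1* (0.21 ± 0.14) and *Neu1* (0.19 ± 0.14) encode the enzymes that remove terminal alpha-galactose, hexosamine, alpha-mannose and sialic acid. Their 4 intervals included 0, and without leukemic replicate 4 their differences were 0.14, 0.14, 0.12 and 0.10. *Gaa*, the acid glucosidase of glycogen, had a difference of 0.11 ± 0.14, and *Arsb*, the sulfatase of dermatan sulfate, one of 0.08 ± 0.14, at 0.07 and -0.04 without leukemic replicate 4. *Gusb*, the beta-glucuronidase often used as a reference gene, had the only negative difference of the group (-0.07 ± 0.08, and -0.03 without that array). The median over the 10 was 0.22, and 0.13 without leukemic replicate 4, when 8 of the 10 were higher.

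**Figure D3:**
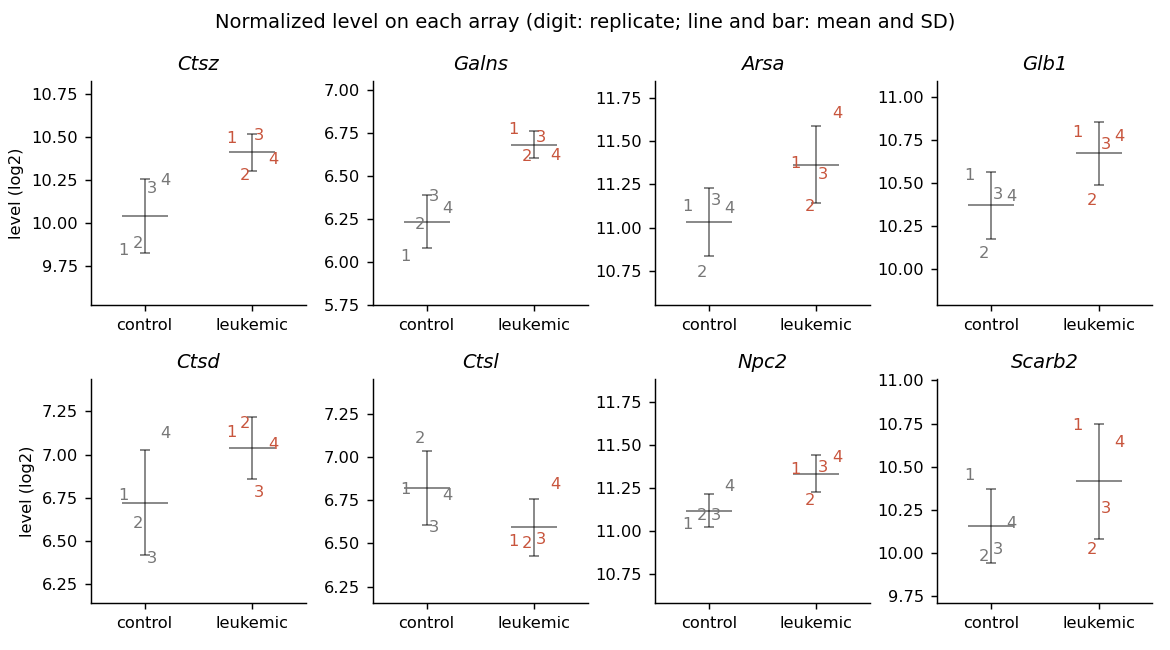
Normalized level (y axis, log2) of 8 members on each array; digits are the replicate numbers, lines and bars the mean and SD of the 4 control (grey) or 4 leukemic (red) arrays. Each panel spans the same range of log2 units; the groups separate in *Ctsz* and *Galns* and overlap in the other 6 genes.

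Among the proteins of lipid hydrolysis and transport, *Npc2* had the largest difference. *Npc2*, which hands cholesterol to the lysosomal membrane, read 11.04, 11.09, 11.09 and 11.26 on the control arrays and 11.36, 11.18, 11.37 and 11.43 on the leukemic arrays. Control replicate 4 was above leukemic replicate 2, and the remaining arrays separated. The difference was 0.21 ± 0.09, and 0.18 without leukemic replicate 4. *Psap*, the precursor of the saposins that present lipids to hydrolases, read 14.31, 14.35, 13.90 and 14.08 on the control arrays and 14.47, 14.12, 14.22 and 14.34 on the leukemic arrays. The groups overlapped over most of their range, with a difference of 0.13 ± 0.12.

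*Lipa*, the acid lipase that frees cholesterol from its esters, differed by 0.12 ± 0.15, and by -0.03 without leukemic replicate 4, the only leukemic array on which it was high. *Ppt1*, which removes palmitate from proteins, differed by 0.09 ± 0.16. *Asah1*, the acid ceramidase, differed by 0.07 ± 0.12 with its brighter probe and by -0.60 with its other probe, so its direction is uncertain, and the brighter probe gave -0.05 without leukemic replicate 4. All 5 genes had the higher mean with leukemic cells, with a median of 0.12. Without leukemic replicate 4 the median was 0.07 and 3 of the 5 were higher.

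The 5 membrane proteins tested also all had the higher mean with leukemic cells, with a median of 0.19 both with and without leukemic replicate 4. *Scarb2*, the receptor that carries glucocerebrosidase to the lysosome, read 10.45, 9.98, 10.02 and 10.17 on the control arrays and 10.74, 10.02, 10.26 and 10.64 on the leukemic arrays. Leukemic replicates 1 and 4 were above all control arrays, and leukemic replicate 2 was near the control minimum. The difference was 0.26 ± 0.17. *Mcoln1*, a calcium channel of the lysosomal membrane, read 9.46, 9.26, 9.13 and 9.36 on the control arrays and 9.89, 9.22, 9.49 and 9.51 on the leukemic arrays. Its highest value was on leukemic replicate 1, and the difference was 0.23 ± 0.15.

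*Lamp1* and *Lamp2*, the abundant glycoproteins that line the membrane, differed by 0.19 ± 0.10 and 0.14 ± 0.13, the latter at 0.05 without leukemic replicate 4. *Cd63*, a tetraspanin of late endosomes, differed by 0.03 ± 0.07 (-0.0020 without leukemic replicate 4), one of the narrowest intervals of the set (-0.12 to 0.18). *Lamp2* and *Cd63* each had further probes with a negative difference, the lowest at -0.04 and -0.18. Of the 35 members, 9 had more than 1 kept probe, and in 6 of these 9 the probes disagreed in sign (*Ctsc*, *Arsb*, *Asah1*, *Lamp2*, *Cd63* and *Atp6v0d1*).

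The subunits and accessory protein of the proton pump were close to 0 with the chosen probes. *Atp6v0d1* read 12.72, 12.60, 12.75 and 12.80 on the control arrays and 12.93, 12.69, 12.72 and 12.77 on the leukemic arrays, a difference of 0.06 ± 0.09. Its other kept probes gave 0.13, 0.31 and -0.05. *Atp6v1h* read 12.42, 12.40, 12.51 and 12.52 on the control arrays and 12.44, 12.37, 12.33 and 12.79 on the leukemic arrays, a difference of 0.02 ± 0.11. *Atp6ap1* read 13.71, 13.75, 13.65 and 13.61 on the control arrays and 13.82, 13.51, 13.59 and 13.74 on the leukemic arrays, a difference of -0.02 ± 0.09. The groups overlapped in all 3 genes, and in *Atp6v1h* and *Atp6ap1* the leukemic arrays fell on both sides of the control range. The median of the 3 was 0.02, and -0.041 without leukemic replicate 4, when *Atp6v1h* was at -0.08 and *Atp6ap1* at -0.04.

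*Grn*, which encodes progranulin, a secreted protein cleaved into granulins in the lysosome, read 13.05, 12.90, 13.26 and 13.37 on the control arrays and 13.67, 13.18, 13.20 and 13.43 on the leukemic arrays. Only leukemic replicates 1 and 4 were above the control maximum, and the difference was 0.23 ± 0.13. *Sqstm1*, the receptor that brings ubiquitinated cargo to autophagosomes, read 13.87, 13.74, 14.16 and 13.96 on the control arrays and 14.04, 13.78, 13.95 and 13.73 on the leukemic arrays. The groups overlapped over nearly their whole range, with a difference of -0.06 ± 0.11, and -0.01 without leukemic replicate 4.

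The lean to higher levels was carried by particular arrays. Of the 35 members, 14 (40.0%) had their highest value on leukemic replicate 1 and 14 (40.0%) on leukemic replicate 4, against 11.8% and 25.2% of all features. Control replicate 2 was the lowest array for 13 members (37.1%), against 17.5% of all features. Relative to the mean of the control arrays, the median member stood at 0.31 on leukemic replicate 1 and at 0.31 on leukemic replicate 4. It stood at -0.04 on leukemic replicate 2 and at 0.01 on leukemic replicate 3, inside the control range of -0.12 to 0.07. The corresponding median of all features lay between -0.02 and 0.02 on every array. The median member was higher on 2 of the 4 leukemic arrays and within the control range on the other 2.

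**Figure D4:**
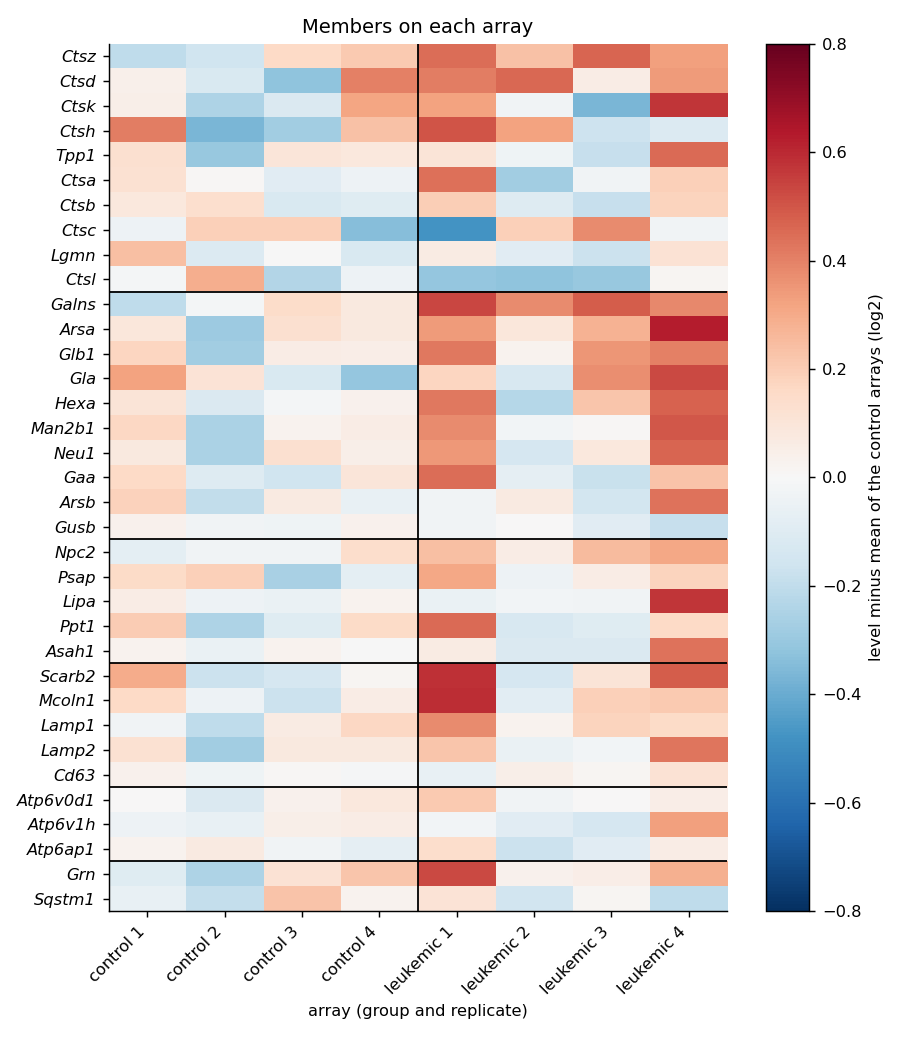
Level of each tested member (rows, grouped by role) on each array (columns), as the difference from the mean of the 4 control arrays (colour, log2). Red runs through most rows on leukemic replicates 1 and 4, pale or mixed colours on leukemic replicates 2 and 3, and blue through many rows on control replicate 2.

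The role groups followed the same arrays to different extents. The glycosidases and sulfatases stood at a median of 0.36 on leukemic replicate 1, -0.01 on replicate 2, 0.15 on replicate 3 and 0.45 on replicate 4. The peptidases stood at 0.26, -0.03, -0.17 and 0.18 on the same arrays, and the membrane proteins at 0.38, -0.05, 0.10 and 0.21. The proton pump stayed between -0.09 and 0.14 on the leukemic arrays. No test of a difference between role groups was made.

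In the median, B cell markers were higher on every leukemic array than on any control array. Pan-leukocyte and myeloid markers were higher on some leukemic arrays only. The pan-leukocyte median on leukemic replicate 1 and the myeloid median on leukemic replicate 3 lay within the control range. Like the members, B cell markers were, among the leukemic arrays, highest on leukemic replicates 4 and 1 and lowest on replicates 2 and 3. The median of the 7 B cell markers tested was 1.02 above the control mean on leukemic replicate 1, 0.68 on replicate 2, 0.70 on replicate 3 and 3.41 on replicate 4. The 6 pan-leukocyte markers tested stood at 0.09, 0.28, 0.35 and 1.57, with a summed signal of 3920 to 4230 on control arrays and 3350 to 7670 on leukemic arrays, and *Ptprc*, the common leukocyte antigen, was detected on no array. The lysosomal membrane protein of leukocytes *Laptm5* (1.23 ± 0.51, and 0.61 without leukemic replicate 4), the 1 gene of this list past the rank product threshold, and the actin regulator *Coro1a* (0.77 ± 0.24) had its largest differences. The 4 markers of myeloid cells tested stood at 0.60, 0.48, 0.11 and 1.36. They were led by the lysozymes *Lyz2* (1.11 ± 0.40) and *Lyz1* (1.07 ± 0.39), at 0.70 and 0.66 without leukemic replicate 4. These 2 genes passed the rank product threshold but not the limma threshold, and 0 of the 4 passed the rank product threshold without leukemic replicate 4. *Cd14* differed by 0.19 and *Clec4e* by -0.05, or 0.10 and -0.11 without that array. The macrophage genes *Adgre1*, *C1qa*, *Itgam* and *Tyrobp* were detected on no array. The summed myeloid signal was 824 to 1130 on control arrays and 1080 to 2950 on leukemic arrays. On leukemic replicate 1, where the members were as high as on replicate 4, the B cell sum was 1120 against 5820 on replicate 4. The B cell markers tested had a median difference of 1.44, and 0.96 without leukemic replicate 4, while the members had 0.13 and 0.067. In the authors' values the B cell median was 0.55 and that of the members 0.10. The myeloid median was 0.63, or 0.38 without leukemic replicate 4 and 0.28 in the authors' values. When markers that failed the detection filter were included, the B cell median was 0.30 and the myeloid median 0.066. The part of B cell or myeloid RNA in the members' levels was not tested, and more such cells cannot be told apart from more RNA per cell in sorted bulk samples. The stromal markers had a median difference of -0.13, with 4 of 11 higher, *Lum* at -0.53 ± 0.33 (-0.24 without leukemic replicate 4) and *Nkx2-5* at 0.44 ± 0.19. The endothelial markers had a median of 0.01, or 0.16 without leukemic replicate 4 (*Flt1* at -0.59 ± 0.32, or -0.20 without that array, and *Plvap* at 0.22 ± 0.19). Markers of T and NK cells had a median of 0.04, or 0.22 without that array (*Prf1* at 0.31 ± 0.30 and *Ccl5* at -0.22 ± 0.41, or 0.14 without that array). The erythroid and platelet genes had a median of 0.20, with *Klf1* at 0.23 ± 0.17 and *Itga2b* at 0.18 ± 0.26, or 0.15 and 0.35 without that array.

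**Figure D5:**
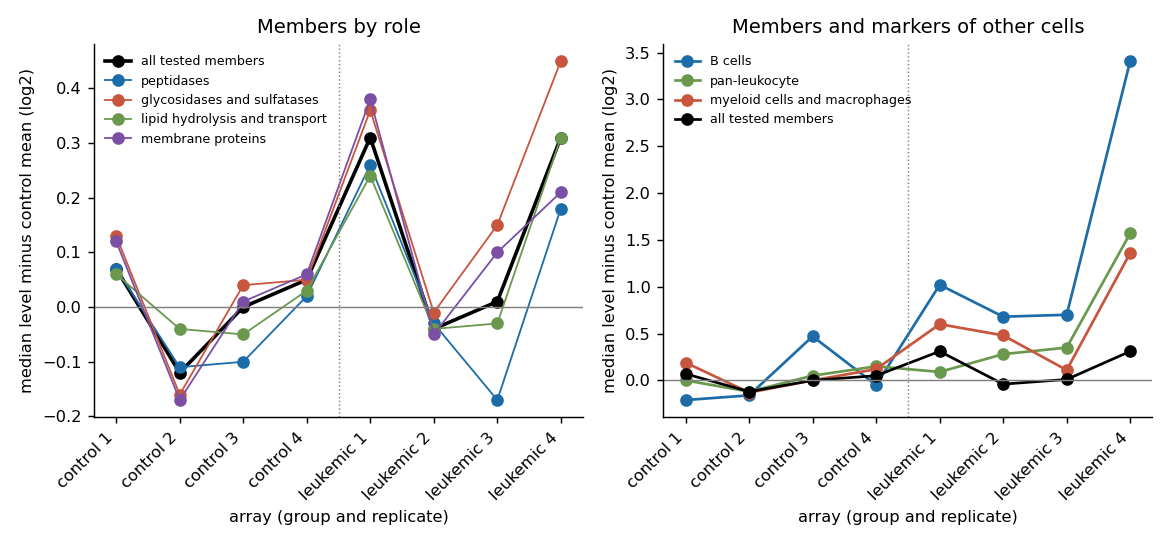
Median level of gene lists on each array (x axis) as the difference from the mean of the control arrays (y axis, log2), for the members and 4 role groups (left) and for the members beside markers of other cells (right, wider scale). The members are at 0.31 on leukemic replicates 1 and 4, while the B cell markers are at 1.02 and 3.41 on those arrays.

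The remaining genes of the lysosome and of autophagy, a list of 106 of which 86 were tested, also had mostly higher means. None passed the rank product or limma threshold; 63 of the 86 (73.3%, against 50.6% of all features) had the higher mean, with a median of 0.09. Without leukemic replicate 4, 56 of the 86 (65.1%) were higher, with a median of 0.051, beside 62.9% and 0.067 for the members. At an unadjusted limma p below 0.05, 8 were higher (9.3%, against 3.9% of all features) and 1 was lower (1.16%, against 3.68%). Groups did not overlap in 2 genes that were higher and 2 that were lower (2.33% each, against 2.21% and 2.31% of all features). Hydrolases and their activators that were not members resembled the members, with 17 of 18 higher and a median of 0.19, or 0.11 without leukemic replicate 4. *Naglu*, which trims heparan sulfate, and *Ctsf*, a cysteine cathepsin, had the highest difference of this list (0.45 ± 0.15 and 0.45 ± 0.20), and *Galc*, the galactosylceramidase, the lowest (-0.02 ± 0.19, and -0.14 without leukemic replicate 4). *Idua*, the iduronidase of dermatan and heparan sulfate, was named after its values were seen because its groups did not overlap. It read 8.92, 8.78, 8.74 and 8.81 on the control arrays and 9.41, 8.94, 9.06 and 9.53 on the leukemic arrays, with a difference of 0.42 ± 0.15. Its other kept probes gave -0.16 and -0.05, so its direction is uncertain.

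Lysosomal membrane proteins and transporters that were not members divided almost evenly, with 9 of 17 higher and a median of 0.03, or 0.0034 without leukemic replicate 4. The sialic acid exporter *Slc17a5* was the highest (0.47 ± 0.19) and the proton and potassium channel *Tmem175* the lowest (-0.28 ± 0.16, and -0.05 in the authors' values). Named after their values were seen, *Tmem192* (0.34 ± 0.13), a membrane protein of lysosomes, and the cation channel *Tpcn1* (-0.13 ± 0.08) had groups that did not overlap, in opposite directions. The other kept probes of *Tpcn1* gave 0.12 and 0.09, so its direction is uncertain. Of 12 further V-ATPase subunits, 8 were higher with a median of 0.04, from *Atp6v1b2* (-0.17 ± 0.10) to *Atp6v1f* (0.28 ± 0.13). Without leukemic replicate 4, 6 of the 12 were higher, with a median of -0.0091.

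Among sorting receptors, nutrient sensors and their transcription factors, 11 of 15 were higher with a median of 0.08, or 0.049 without leukemic replicate 4. The hydrolase receptor *Sort1* was the highest (0.43 ± 0.18, and 0.24 without leukemic replicate 4) and the Golgi adaptor *Gga3* the lowest (-0.11 ± 0.16, and -0.18 without that array). Of the factors that bind the E-box printed above, *Tfeb* and *Mitf* did not pass the detection filter and *Tfe3*, named after its values were seen, differed by 0.28 ± 0.15. Of the 30 tested members with a promoter sequence, the 11 with CACGTG had a median difference of 0.19, with 9 higher, and the 19 without it one of 0.13, with 16 higher. *Ctsl* and *Lgmn*, both with the motif, were among the members with a lower mean.

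In the autophagy list 15 of 21 genes were higher, with a median of 0.05, or 0.021 without leukemic replicate 4. *Nbr1*, a cargo receptor related to *Sqstm1*, read 8.77, 9.05, 8.71 and 8.77 on the control arrays and 8.43, 8.48, 8.30 and 8.33 on the leukemic arrays. All leukemic arrays were below all control arrays, and the difference of -0.44 ± 0.12 (limma unadjusted p = 0.00486, adjusted p = 0.639, rank product q = 0.489) was -0.26 in the authors' values. *Gabarapl2*, which attaches to autophagosome membranes, was the highest of the list (0.36 ± 0.24, and 0.17 without leukemic replicate 4). Its levels were low, at 5.28 to 6.66. The difference was 0.06 in the authors' values and 0.07 with its other probe. The 3 cathepsin inhibitors tested were all higher in the mean, from *Cstb* (0.14 ± 0.08) to *Cst3* (0.24 ± 0.13, and 0.14 without leukemic replicate 4), with a median of 0.16.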

How the data were processed

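Intensities of an Illumina mouse bead array were deposited for 25697 probes on 8 arrays without normalization, with a detection p-value that the authors exported for each probe and array. The authors also deposited a matrix on a log2 scale, normalized with lumi according to the study's methods, whose background settings are not given in the sources used here. Each of its columns followed its own array (r of 0.839 to 0.881, against at most 0.331 with any other array), and it served as an alternative.

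Signals were processed with neqc (limma 3.58.1, R 4.3.3; offset 16), which corrects background from the detection p-values, applies quantile normalization and takes log2. Probes with a detection p-value below 0.05 on at least 4 arrays were kept (13732 of 25697). Probes were named through their Entrez identifiers or accessions in RefSeq tables, which gave 23978 probes 1 symbol and left 1719 unnamed. Of 225 listed genes 203 were matched. The brightest kept probe stood for a gene, and levels were never compared between probes.

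The main test was a 2-class rank product, the method named by the study, rewritten for this purpose with 16 array pairs, 100 permutations and a q-value below 0.05. Differences, standard errors, intervals and adjusted p-values came from limma with an intensity trend and Benjamini-Hochberg adjustment over all 9971 features. Both were tested on simulated data, where limma made no call without a change and the rank product made some when features kept their own spreads. With 4 arrays a group, their number limits the precision. Promoters were searched and figures drawn with Python 3.11.15.

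All members were named, with values on every array where a test was passed, where groups did not overlap, and for the 2 largest differences of each role. From other lists the highest and lowest gene, and from cell marker lists the 2 largest differences, were named. Members and lists were chosen with earlier results of these data known. Alternatives were another offset, no background correction, median scaling, the authors' values, other detection filters, the mean of a gene's probes, limma without trend or with array weights, the replicate number as a block, and each array left out in turn.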

Additional observations from a re-analysis of the deposited data

Results flagged for a closer look

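In 70 groups of 4 arrays (35 members in each group), 5 had a single array far from the other 3 by Dixon's criterion at the 95% level. About 1 in 20 groups is picked out in this way by chance. Leukemic replicate 4 was high for *Ctsl* (6.84, against 6.50 to 6.52 on the other leukemic arrays) and for *Lipa* (10.07, against 9.45 to 9.48). Control replicate 2 was low for *Tpp1* (11.15, against 11.54 to 11.58 on the other control arrays), for *Arsa* (10.74, against 11.11 to 11.16) and for *Lamp2* (13.64, against 14.00 to 14.04).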

How the results depend on the processing

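No member passed the rank product or limma threshold under any alternative run, and limma called 0 features throughout. The number of features called higher by rank product was 37, and it was 24 with an offset of 50, 24 with no background correction, 10 with the authors' normalized values and 6 to 41 when 1 array was left out (6 without leukemic replicate 4, 14 without control replicate 2 or 4, 17 without leukemic replicate 1 and 18 without control replicate 1). The number called lower was 0, and it was 4 with the authors' values, 6 with no detection filter, 3 with the mean of a gene's probes and 0 to 16 when 1 array was left out, with 16 without leukemic replicate 2 and 5 without control replicate 4 or leukemic replicate 3. The cause of these shifts was not tested.

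The members' median of 0.13 was 0.10 to 0.16 under other scalings and filters and 0.067 to 0.19 when 1 array was left out. The further V-ATPase subunits turned to -0.029 with the mean of a gene's probes. With no detection filter, when more genes were tested, the B cell median was 0.30 in place of 1.44 and the myeloid median 0.066 in place of 0.63.

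Of 35 members, 20 kept their direction under all 16 alternatives and 15 did not. Some of the 16 could not turn a direction. The replicate block left every difference as it was, and the filter for detection on all 8 arrays kept the same probes. The mean of a gene's probes could move only the 9 members with more than 1 kept probe. With the mean of a gene's probes *Ctsc* was at -0.06, *Arsb* at -0.08, *Asah1* at -0.26 and *Cd63* at -0.06. With median scaling *Lgmn* was at 0.05, *Cd63* at -0.11 and *Atp6ap1* at 0.02. With 1 array left out, the ranges that crossed 0 were those of *Ctsa* (-0.04 to 0.20), *Ctsb* (-0.04 to 0.09), *Ctsc* (-0.11 to 0.18), *Ctsk* (-0.02 to 0.29), *Lgmn* (-0.07 to 0.06), *Tpp1* (-0.04 to 0.17), *Gaa* (-0.0040 to 0.20), *Arsb* (-0.04 to 0.15), *Asah1* (-0.05 to 0.13), *Lipa* (-0.03 to 0.17), *Ppt1* (-0.03 to 0.17), *Cd63* (-0.0020 to 0.06), *Atp6v1h* (-0.08 to 0.07), *Atp6ap1* (-0.07 to 0.04) and *Sqstm1* (-0.12 to 0.02).

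Same-numbered arrays deviated together with correlations of 0.251, 0.301, 0.194 and 0.0308. In each group, 3 of 4 arrays matched their own number best. The cause was not tested. The labels state no pairing and the correlation for number 4 was not over 0.1, so the comparison was left unpaired. With the number as a replicate block, the rank product called 43 features higher and 17 lower, with 0 members among them, and limma called 0.

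Signal limits *Ctsd*, *Ctsl*, *Galns* and *Gla*, whose levels of 5.86 to 7.18 are low on this scale. Their differences were 0.09, -0.06, 0.10 and 0.05 in the authors' values, against 0.32, -0.23, 0.44 and 0.23.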
